A study of Arabidopsis thaliana with 4 samples.

Results

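The NF-YA genes of Arabidopsis thaliana encode the A subunit of nuclear factor Y, and all 10 of them, NF-YA1 to NF-YA10, were taken by gene identifier out of the 37869 loci in the count tables. All 10 had enough counts to be tested, among 20971 tested loci. Polyadenylated RNA had been sequenced with a stranded kit from whole seedlings aged 14 days, raised on soil in a cycle of 16 h light and 8 h dark. There were 2 libraries of tho2-8, a mutant of THO2, and 2 libraries of Col-LUC, the background line that the genotype label gives for all 4 libraries. The genotype of each library was therefore read from its title. The sources used here do not describe the tho2-8 allele or what LUC stands for in the background line, and nothing states that replicates were grown separately. The THO2 protein belongs to the THO complex, which joins transcription to the packaging and export of mRNA.

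Nuclear factor Y binds the CCAAT box of promoters as a trimer. The NF-YB and NF-YC subunits form a histone-like pair, and the NF-YA subunit joins that pair and reads the CCAAT letters. In plants many NF-YA messages are cut under the guidance of microRNA miR169, whose level is known to drop when nitrogen or water is short. THO components have been tied to the production of small RNAs in Arabidopsis, so the comparison can be read as asking whether messages under microRNA control stand at another level in tho2-8.

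The RefSeq annotation of the TAIR10.1 assembly holds 14 MIR169 loci. Their mature miRNAs, leaving out the 4 listed as 3p, have 4 distinct sequences of 21 bases. They are shown because the sites in the NF-YA messages are read against them, with bases 2 to 8, the seed, in capitals and T written for U. The sequence of miR169a (chromosome 3), that of miR169b and c (chromosome 5) and that of miR169h to n (chromosomes 1 and 3) share a seed. That of miR169d to g (chromosomes 1, 3 and 4) begins 1 base earlier and so has another one.
miR169a: cAGCCAAGgatgacttgccga
miR169b and c: cAGCCAAGgatgacttgccgg
miR169d to g: tGAGCCAAggatgacttgccg
miR169h to n: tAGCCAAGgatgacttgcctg

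The best miR169 match in each annotated NF-YA message was found without gaps, with a penalty of 1 for a mismatch and 0.5 for a G:U pair, doubled at miRNA bases 2 to 12. At a penalty of 4 or less, 8 of the 10 messages held a match, each in the 3' UTR and in every annotated transcript of its gene. Of 27444 protein-coding loci searched in the same way, 11 held such a match, or 0.0401%. The matches are printed below from the 5' end, with coordinates in TAIR10.1, and capitals mark bases that pair with the miRNA by Watson-Crick rules.
NF-YA1 (chr5:4051058-4051078, minus strand, penalty 3, to miR169b and c): CCGGCAAaTCATtCTTGGCTt
NF-YA2 (chr3:1676807-1676827, minus strand, penalty 3, to miR169h to n): CAGGCAAaTCATCtTTGGCTc
NF-YA3 (chr1:27405638-27405658, minus strand, penalty 2.5, to miR169h to n): agGGgAAGTCATCCTTGGCTA
NF-YA5 (chr1:20217494-20217514, minus strand, penalty 3, to miR169a): aCGGgAAGTCATCCTTGGCTa
NF-YA6 (chr3:4644334-4644354, plus strand, penalty 2, to miR169h to n): aAGGgAAGTCATCCTTGGCTA
NF-YA8 (chr1:6050422-6050442, minus strand, penalty 2.5, to miR169h to n): aAGGgAAGTCATCCTTGGCTg
NF-YA9 (chr3:7328380-7328400, plus strand, penalty 4, to miR169d to g): CGGCAAtTCATtCTTGGCTtt
NF-YA10 (chr5:1986749-1986769, plus strand, penalty 3, to miR169h to n): CAGGCAAaTCATCtTTGGCTc

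NF-YA2 and NF-YA10 held the same 21 bases. The matches of NF-YA3, NF-YA5, NF-YA6 and NF-YA8 differed from each other at 1 or 2 of 21 bases, and all 4 left miRNA base 17 unpaired while every base from 2 to 12 was paired. The best matches of the other two members were poor and lay in coding sequence, at a penalty of 8 in NF-YA7 and 10 in NF-YA4. NF-YA6 and NF-YA9 had been placed with NF-YA4 and NF-YA7 as other members of the family, yet NF-YA6 held the match of lowest penalty of all 10. A match describes the letters and does not show that a message is cut. The MIR169 loci themselves are not analysed here.

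Totals ran from 17119534 to 17877941 assigned counts per library, so that 1 count was worth 0.055 to 0.059 CPM (a level relative to the library total, here scaled by TMM). THO2 stood at 109 and 100 CPM in tho2-8 and at 82.1 and 84.6 CPM in Col-LUC, where edgeR gave an adjusted p of 0.34, so its mRNA does not check the labels. The libraries also differed in markers of other organs. The summed level of 14 root markers was 142 to 144 CPM in tho2-8 and 126 to 175 CPM in Col-LUC, with none of them at 0 counts throughout. SCR was the largest part of that sum, at 60.8 and 63.7 CPM in tho2-8 and 48.4 and 50.4 CPM in Col-LUC. The median log2 fold change of the root markers was -0.63 over 13 tested. Before adjustment 1 was higher, SCR, and 3 were lower, CASP1, CASP2 and COBL9, at a p under 0.05 by edgeR. Of all tested loci 8.40% were higher and 7.18% lower at that p. The 5 floral organ markers summed to 14.5 and 9.4 CPM in tho2-8 and to 9.92 and 36.9 CPM in Col-LUC, where replicate 2 stood apart. Their median log2 fold change was -0.96, with 0 of 5 above 0 and 1 lower at an unadjusted p under 0.05. Of 6 seed maturation markers 0 had enough counts to be tested, and LEC1 and CRA1 were at 0 counts in all 4 libraries. The part of these markers in the NF-YA values below was not tested. In whole seedlings, fewer cells of a type and less RNA per cell cannot be told apart.

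No NF-YA gene was called between tho2-8 and Col-LUC. In edgeR's quasi-likelihood test, after Benjamini-Hochberg adjustment, 0 of the 10 passed, where 0.00954% of all tested loci did. At an unadjusted p under 0.05 the count was 0 of 10, against 15.6% of tested loci, and DESeq2 also called 0 of 10, against 2.57% of the loci it tested. The median log2 fold change of the 10 was 0.18, beside 0.01 over all tested loci, and 7 of 10 were above 0, where 51.5% of tested loci were. The 95% intervals were not adjusted over the 10 genes. They rest on 2 libraries per genotype, whose spread could be technical, so they do not bound a biological effect. Over the 10 genes they reached down to a fold of 0.612, for NF-YA5, and up to 1.83, for NF-YA9, so each interval left out a doubling and a fold of 0.5. Both tho2-8 libraries stood above both Col-LUC libraries for 4 members, NF-YA1, NF-YA3, NF-YA6 and NF-YA9, where 25.7% of tested loci did so. They stood below both for 1 member, NF-YA10, where 22.8% of tested loci did.

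**Figure D1:**
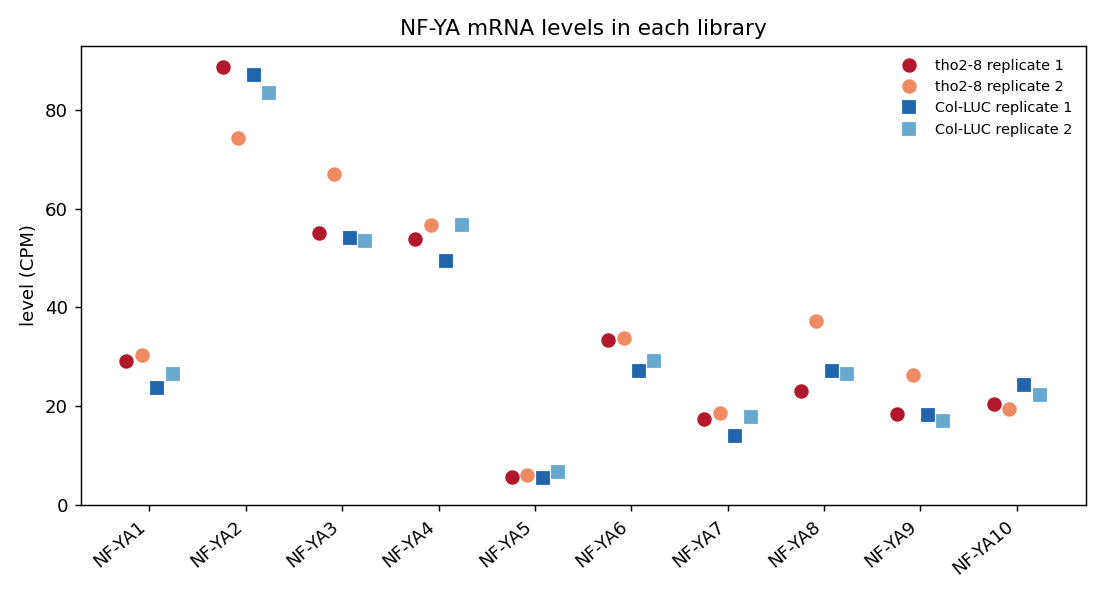
Level of each NF-YA mRNA in CPM (vertical axis, from 0) in the 2 tho2-8 libraries (circles) and the 2 Col-LUC libraries (squares), 1 point per library. NF-YA2 lies highest and NF-YA5 lowest in every library, and for NF-YA8 the tho2-8 points, 23 and 37.3 CPM, lie on either side of the Col-LUC points.

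The members are described next by the pairs that share most sequence. NF-YA2 and NF-YA10, whose messages hold identical miR169 matches, are known for a role in leaf growth in Arabidopsis, and NF-YA2 also for a part in root branching under miR169. NF-YA2 (AT3G05690, chr3:1676504-1679061, minus strand) was the most abundant member. It stood at 88.8 and 74.4 CPM in tho2-8 and at 87 and 83.5 CPM in Col-LUC. The genotypes overlapped, with tho2-8 replicate 1 the highest and tho2-8 replicate 2 the lowest of the 4 libraries. The log2 fold change was -0.06 ± 0.16 (SE, n = 2 per genotype; adjusted p = 0.883 by edgeR). NF-YA10 (AT5G06510, chr5:1984823-1987064, plus strand) stood at 20.4 and 19.5 CPM in tho2-8 and at 24.4 and 22.3 CPM in Col-LUC. It was the only member with both tho2-8 libraries below both Col-LUC libraries. It had a log2 fold change of -0.23 ± 0.17 (SE; adjusted p = 0.554 by edgeR), and the interval of fold ran from 0.647 to 1.13. A lower level of NF-YA10 of that size was thus not called by edgeR, though the libraries of the 2 genotypes did not overlap.

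NF-YA3 and NF-YA8 act redundantly in early embryo development in Arabidopsis, and their messages share up to 35 identical bases in a run. NF-YA3 (AT1G72830, chr1:27405145-27408221, minus strand) stood at 55 and 67.1 CPM in tho2-8 and at 54.1 and 53.4 CPM in Col-LUC. The higher mean of NF-YA3 in tho2-8 came mainly from replicate 2, since replicate 1 was within 2 CPM of both Col-LUC libraries. NF-YA8 (AT1G17590, chr1:6050164-6052628, minus strand) stood at 23 and 37.3 CPM in tho2-8 and at 27.1 and 26.5 CPM in Col-LUC. The 2 tho2-8 libraries lay on opposite sides of Col-LUC for NF-YA8, with a ratio of replicate 2 to replicate 1 of 1.62 in tho2-8 and 0.976 in Col-LUC. The log2 fold changes were 0.18 ± 0.16 for NF-YA3 (adjusted p = 0.612 by edgeR) and 0.17 ± 0.24 for NF-YA8 (adjusted p = 0.78 by edgeR; SE, n = 2 per genotype). Without tho2-8 replicate 2 the value of NF-YA8 was -0.21, and without tho2-8 replicate 1 it was 0.45. For NF-YA3 those values were 0.04 and 0.29.

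NF-YA1 and NF-YA9, with NF-YA5 and NF-YA6, are known for roles in pollen and embryo formation in Arabidopsis. NF-YA1 (AT5G12840, chr5:4050691-4053669, minus strand) stood at 29.2 and 30.3 CPM in tho2-8 and at 23.6 and 26.5 CPM in Col-LUC. Both tho2-8 libraries were above both Col-LUC libraries, and replicates were close within each genotype. The log2 fold change of NF-YA1 was 0.25 ± 0.16 (SE, adjusted p = 0.492 by edgeR), with an interval of fold from 0.915 to 1.54. NF-YA9 (AT3G20910, chr3:7326355-7328581, plus strand) stood at 18.4 and 26.4 CPM in tho2-8 and at 18.3 and 17.1 CPM in Col-LUC. As for NF-YA3 and NF-YA8, tho2-8 replicate 2 alone stood clearly above the rest, at 1.44 times tho2-8 replicate 1. NF-YA9 had the highest log2 fold change of the family, 0.34 ± 0.22 (SE, adjusted p = 0.496 by edgeR). It was 0.07 without tho2-8 replicate 2 and 0.55 without tho2-8 replicate 1. That last fit gave the smallest adjusted p of any member over the alternatives, 0.298 by edgeR.

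NF-YA5 is known in Arabidopsis guard cells for limiting water loss in drought. NF-YA5 (AT1G54160, chr1:20217336-20219452, minus strand) was the least abundant member, with 95 to 112 counts per library. It stood at 5.76 and 6.1 CPM in tho2-8 and at 5.45 and 6.61 CPM in Col-LUC, so that both tho2-8 values lay between the Col-LUC values. The log2 fold change was -0.02 ± 0.29 (SE, adjusted p = 0.979 by edgeR), and it was 0.01 when libraries were scaled by their totals. NF-YA6 (AT3G14020, chr3:4641930-4644571, plus strand) stood at 33.5 and 33.8 CPM in tho2-8 and at 27.2 and 29.2 CPM in Col-LUC. The NF-YA6 groups did not overlap, and the tho2-8 libraries were nearly alike. Its log2 fold change of 0.26 ± 0.15 (SE) had the smallest p of the family, 0.131 before and 0.453 after adjustment by edgeR, and ranked 6074 among the tested loci. NF-YA5, NF-YA6 and NF-YA9 each overlap genes on the other strand, and the sources used here do not say whether counting used strand, so their values are uncertain. The non-coding genes over NF-YA5 and NF-YA6, AT1G07943 and AT3G02825, were at 0 counts in all 4 libraries. The coding gene AT1G54150, which overlaps NF-YA5 by 154 bp, stood at 22.4 and 21.8 CPM in tho2-8 and at 20.8 and 21.8 CPM in Col-LUC. AT3G20920, which overlaps NF-YA9 by 6 bp, stood at 60.8 and 66.8 CPM in tho2-8 and at 60 and 54.4 CPM in Col-LUC.

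NF-YA4 and NF-YA7 are the pair without a miR169 match within the penalty limit. NF-YA4 joins NF-YB3, NF-YC2 and the factor bZIP28 in the endoplasmic reticulum stress response of Arabidopsis. NF-YA4 (AT2G34720, chr2:14649706-14651709, minus strand) stood at 53.8 and 56.7 CPM in tho2-8 and at 49.4 and 56.7 CPM in Col-LUC. NF-YA7 (AT1G30500, chr1:10804450-10806428, minus strand) stood at 17.4 and 18.7 CPM in tho2-8 and at 14 and 17.8 CPM in Col-LUC. In both genes Col-LUC replicate 1 was the lowest library and the genotypes overlapped. The log2 fold changes were 0.06 ± 0.15 for NF-YA4 (adjusted p = 0.883 by edgeR) and 0.18 ± 0.20 for NF-YA7 (adjusted p = 0.709 by edgeR; SE, n = 2 per genotype). Without Col-LUC replicate 1 they were -0.04 for NF-YA4 and 0.02 for NF-YA7, and without Col-LUC replicate 2 they were 0.16 and 0.36.

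The members with and without a match overlapped in these values. The 8 with a match had log2 fold changes from -0.23 to 0.34, a range that holds the values of NF-YA4 and NF-YA7. The summed level of the 8 was 274 and 295 CPM in tho2-8 and 267 and 265 CPM in Col-LUC, a log2 ratio of 0.10. That of NF-YA4 and NF-YA7 was 71.2 and 75.4 CPM in tho2-8 and 63.5 and 74.5 CPM in Col-LUC, a log2 ratio of 0.09. With NF-YA1, 2, 3, 5, 8 and 10 alone counted as miR169 targets the sums were 222 and 235 CPM in tho2-8 and 222 and 219 CPM in Col-LUC, a log2 ratio of 0.05. For NF-YA4, 6, 7 and 9 they were 123 and 136 CPM in tho2-8 and 109 and 121 CPM in Col-LUC, a log2 ratio of 0.17. By an exact two-sided permutation test of 2 libraries against 2, p was 0.333 for each of these sums except that of NF-YA4 and NF-YA7, where it was 0.667. The smallest p such a test can give is 0.333.

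Per kilobase of annotated exon, the order of the members was nearly the same in both genotypes. NF-YA2 came first, at 46.1 and 38.6 CPM per kilobase in tho2-8 and 45.1 and 43.4 in Col-LUC. NF-YA4 came second, at 36.2 and 38.2 CPM per kilobase in tho2-8 and 33.3 and 38.1 in Col-LUC, with NF-YA3 after it. Over the 4 libraries the ranges of these 3 members did not overlap each other, nor did NF-YA3 overlap NF-YA1 below it. NF-YA1, NF-YA9, NF-YA7, NF-YA6 and NF-YA8 followed, with 4-library means of 17.2 to 14.6 CPM per kilobase, and each neighbour in that order overlapped the next. NF-YA10, with a 4-library mean of 10.2 CPM per kilobase, and NF-YA5, with 4.09, stood apart at the end. As a share of the summed family level per kilobase, NF-YA2 held 23.7% and 18.4% in tho2-8 and 24.5% and 22.6% in Col-LUC, and NF-YA4 held between 18% and 19.9% in every library. NF-YA10 held 4.92% and 4.39% in tho2-8 and 6.22% and 5.47% in Col-LUC.

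**Figure D2:**
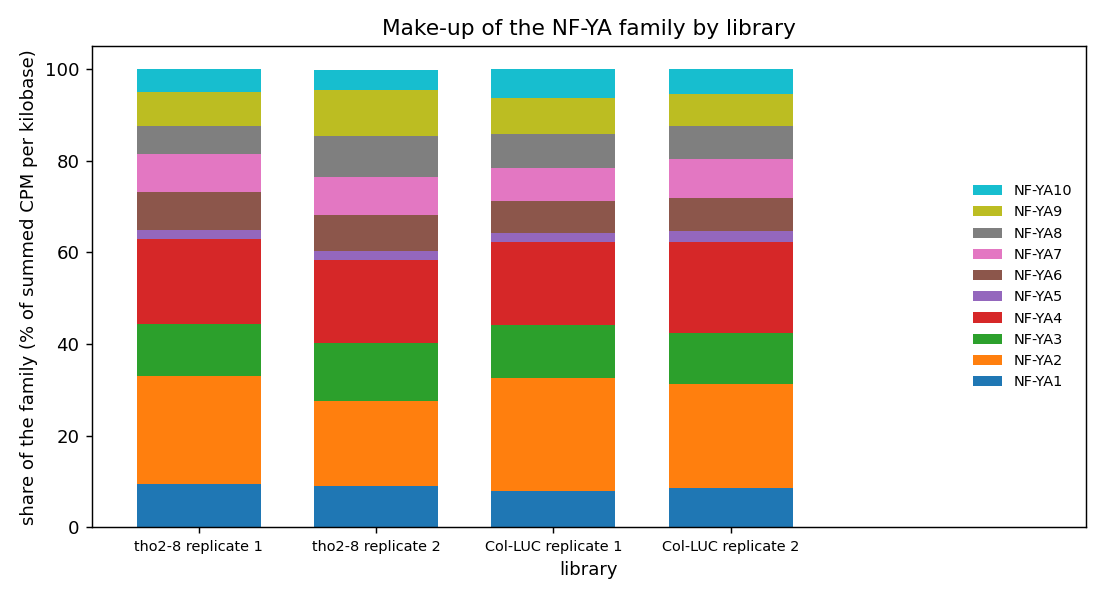
Share of each NF-YA member in the summed family level (vertical axis, % of CPM per kilobase) in the 2 tho2-8 and the 2 Col-LUC libraries, 1 bar per library. NF-YA2 and NF-YA4 hold the widest bands in all 4 bars, and NF-YA5 the thinnest, at 1.99% to 2.36%.

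The families named NF-YB and NF-YC were then set beside NF-YA. NF-YB and NF-YC subunits make the histone-like pair without which NF-YA does not bind DNA. The loci of both families were listed by name alone, and whether each of them pairs with NF-YA was not tested. A higher or lower level of a listed gene is therefore not read as a change in the partners of NF-YA. Of 13 NF-YB loci 9 were tested and of 13 NF-YC loci 8 were tested, with 0 called by edgeR in either family. Before adjustment, 3 NF-YB genes had a p under 0.05 and were higher and 1 was lower, and 3 NF-YC genes were higher and 0 lower, against 8.40% of tested loci higher and 7.18% lower. NF-YB12 stood at 41.4 and 51.5 CPM in tho2-8 and at 22 and 21.3 CPM in Col-LUC, a fold of 2.14 with a 95% interval from 1.62 to 2.83 (adjusted p = 0.102 by edgeR). NF-YB13 stood at 19.6 and 23.6 CPM in tho2-8 and at 12 and 13.3 CPM in Col-LUC (log2 fold change 0.77 ± 0.20, SE, adjusted p = 0.18 by edgeR). NF-YB2, a flowering-time partner of CONSTANS, stood at 45.2 and 40.7 CPM in tho2-8 and at 24.9 and 31.9 CPM in Col-LUC (0.60 ± 0.18, adjusted p = 0.214 by edgeR). Both tho2-8 libraries lay above both Col-LUC libraries for 4 of the 9 tested NF-YB genes, these 3 and NF-YB11, where 25.7% of tested loci did so. NF-YB8 was the gene on the other side, at 3.35 and 3.96 CPM in tho2-8 and 7.11 and 6.97 CPM in Col-LUC (-0.94 ± 0.30, adjusted p = 0.229 by edgeR).

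Among NF-YC genes, the log2 fold changes were 0.44 ± 0.17 for NF-YC4, 0.47 ± 0.19 for NF-YC12 and 0.36 ± 0.15 for NF-YC11 (SE; adjusted p between 0.281 and 0.312 by edgeR). NF-YC2, the partner of NF-YA4 in stress, was at 0 counts in all 4 libraries, and 1417 bp of it overlap AT1G56180 on the other strand. By the mean over all 4 libraries, NF-YB3 was the most abundant NF-YB gene per kilobase, at 38.5 CPM in tho2-8 and 33.1 CPM in Col-LUC. The most abundant NF-YC gene was NF-YC11, at 32.3 CPM per kilobase in tho2-8 and 25.1 in Col-LUC. Within Col-LUC alone NF-YC1 was above NF-YC11, at 27.5 CPM per kilobase. NF-YB12 had the highest mean of the NF-YB genes in tho2-8, 43.3 CPM per kilobase, against 20.2 in Col-LUC. NF-YB2, NF-YB11, NF-YC4 and NF-YC11 also overlap genes on the other strand, so their values are uncertain in the same way. The median log2 fold change was 0.22 for NF-YB and 0.25 for NF-YC, beside 0.18 for NF-YA.

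**Figure D3:**
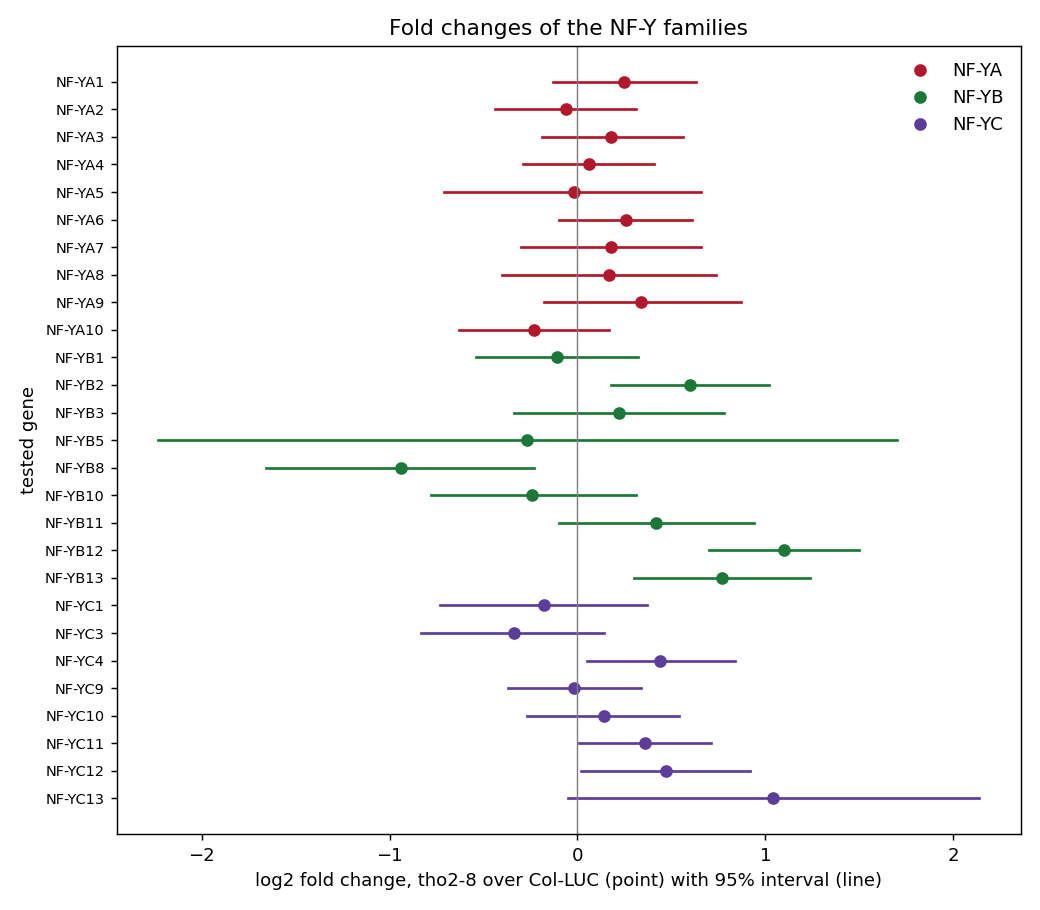
Log2 fold change of tho2-8 over Col-LUC (horizontal axis) for each tested gene of the NF-YA, NF-YB and NF-YC families, with the 95% interval of the edgeR fit as a line. All 10 NF-YA intervals include 0, and the intervals of NF-YB2, NF-YB8, NF-YB12, NF-YB13, NF-YC4, NF-YC11 and NF-YC12 do not, before any adjustment for multiple tests.

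Summed per kilobase, NF-YA reached 195 and 209 CPM in tho2-8 and 184 and 192 CPM in Col-LUC. NF-YB reached 174 and 190 CPM per kilobase in tho2-8 and 126 and 144 in Col-LUC. Of the 9 tested NF-YB genes 5 had a log2 fold change above 0. NF-YB12 had the widest gap per kilobase, at a mean of 43.3 CPM in tho2-8 and 20.2 CPM in Col-LUC. NF-YC reached 150 and 149 CPM per kilobase in tho2-8 and 123 and 143 in Col-LUC. In each family both tho2-8 libraries lay above both Col-LUC libraries, as was so for 25.7% of single tested loci. For the family sums in CPM the exact two-sided permutation p was 0.333 in each family, the smallest possible. The ratio of summed NF-YA to summed NF-YB per kilobase was 1.12 and 1.1 in tho2-8 and 1.47 and 1.34 in Col-LUC (exact two-sided permutation p = 0.333, the smallest possible). The ratio of NF-YA to NF-YC was 1.3 and 1.41 in tho2-8 and 1.5 and 1.34 in Col-LUC, and these overlapped. Both ratios count every locus with the family name, NF-YB12 and NF-YB13 among them. Whether each locus pairs with NF-YA was not tested, so the ratios do not measure a balance between NF-YA and its partners.

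**Figure D4:**
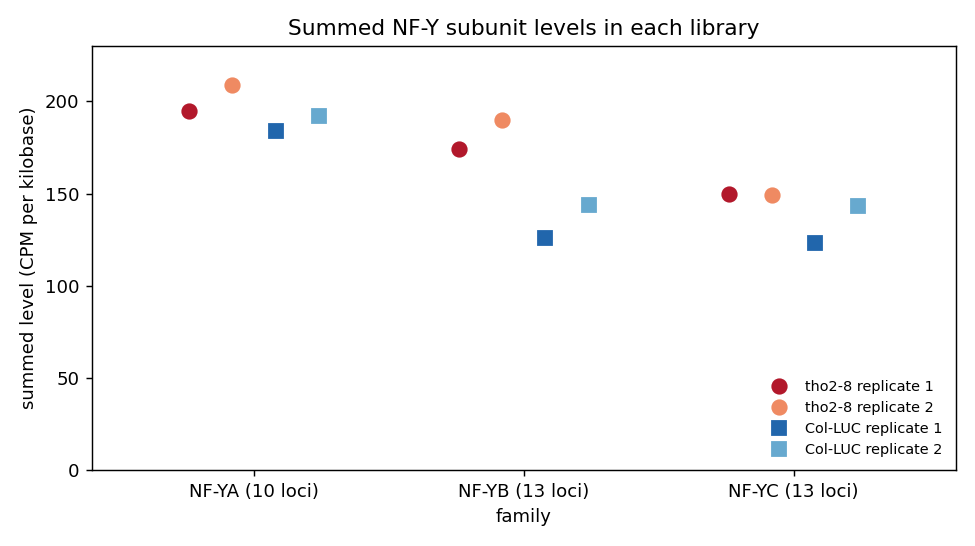
Summed level of the NF-YA, NF-YB and NF-YC families in CPM per kilobase of exon (vertical axis, from 0), 1 point per library, tho2-8 as circles and Col-LUC as squares. The gap between genotypes is widest for NF-YB, at 174 and 190 in tho2-8 and 126 and 144 in Col-LUC.

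Genes linked to NF-Y in other work on Arabidopsis gave 7 tested of 10. The median log2 fold change was 0.33, with 0 called by edgeR, while 2 were higher and 1 was lower at an unadjusted p under 0.05, where 8.40% and 7.18% of tested loci were. The nitrate transporter NRT1.1, known to be lower in plants that overexpress miR169a, stood at 207 and 138 CPM in tho2-8 and at 321 and 301 CPM in Col-LUC (-0.85 ± 0.23, adjusted p = 0.191 by edgeR). HY5, a light-response factor that works with NF-YC proteins, had a log2 fold change of 0.42 ± 0.16 (adjusted p = 0.295 by edgeR), and bZIP28 of 0.35 ± 0.14 (adjusted p = 0.299 by edgeR). The nitrate transporter NRT2.1 and the flowering signal FT were too low to be tested. All 6 small RNA factors listed, DCL1, HYL1, SE, HEN1, HST and AGO1, were tested, and 0 had an unadjusted p under 0.05 by edgeR. AGO1, which carries miR169 and other microRNAs, stood at 264 and 258 CPM in tho2-8 and at 265 and 277 CPM in Col-LUC. DCL1, which cuts microRNAs from their precursors and overlaps genes on both strands, stood at 102 and 91 CPM in tho2-8 and at 97.1 and 110 CPM in Col-LUC.

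The 3 loci whose profile over the 4 libraries was nearest to the mean profile of the NF-YA genes were GHR1, PRT1 and AT5G65290. GHR1, a receptor-like kinase of guard cells, stood at 20.4 and 22.5 CPM in tho2-8 and at 19.4 and 20.7 CPM in Col-LUC. Its distance from the mean profile was 0.0164 on the log2 scale, and those of PRT1 and AT5G65290 were 0.0225 and 0.0227. Within a wider distance of 0.1 lay 311 of the 18809 loci considered, so with 4 libraries many loci have a similar profile.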

How the data were processed

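The deposited tables, 1 per library, hold estimated counts per locus that had not been scaled. The submitters' processing notes name the TAIR10 build, Trimmomatic, DESeq2 1.24.0, HISAT2 2.1.0 and featureCounts 1.6.3; the sources used here give no settings, strand use or handling of shared reads. About 2.1% of loci per table hold fractional values, which were rounded; the 40 member values were whole. The 296 organelle loci hold 0 counts and were left out. Loci passing filterByExpr were scaled by TMM and tested in edgeR 4.0.16 (glmQLFit, then glmQLFTest; R 4.3.3) with genotype as the only term, over all tested loci, at a Benjamini-Hochberg adjusted p under 0.05; the test was checked on simulated data. Standard errors and 95% intervals come from the F statistic. A p-value here reflects the spread among 2 libraries per genotype, which could be technical. In edgeR the spread of each locus is also drawn toward that of the other tested loci. No 2 replicate tables were identical, and replicates differed beyond sampling noise (chi-square per gene 22.6 in tho2-8 and 24.8 in Col-LUC). Members, lists and tests were chosen with earlier results of these data known. Genes named by rule were those with an unadjusted p under 0.05, up to 5 per list, and the most abundant of NF-YB and NF-YC per kilobase. Other genes were named after their values were seen. The most similar loci (mean log2 CPM of at least 1) were ranked by Euclidean distance of centred log2 CPM (prior count 2). Annotation, lengths and sequences come from RefSeq for TAIR10.1; all listed genes matched it. Alternatives were DESeq2 1.42.0, voom in limma 3.58.1, other scalings and filters, a replicate block and leaving out each library.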

Additional observations from a re-analysis of the deposited data

How the results depend on the processing

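No NF-YA gene was called in any of the 12 alternatives; at an unadjusted p under 0.05 the count was 0 in 11 of them and 1 without tho2-8 replicate 1, NF-YA9 (adjusted p = 0.298 by edgeR). Of 120 alternative fold changes of members 115 kept their direction. The exceptions were NF-YA2 at 0.07 and NF-YA8 at -0.21 without tho2-8 replicate 2, NF-YA4 at -0.04 without Col-LUC replicate 1, and NF-YA5 at 0.01 with library totals and 0.12 without Col-LUC replicate 2; the cause was not tested. Leaving out 1 library in turn gave -0.22 to 0.07 for NF-YA2, -0.04 to 0.16 for NF-YA4, -0.16 to 0.12 for NF-YA5 and -0.21 to 0.45 for NF-YA8. Both summed levels kept their direction in every alternative. The log2 ratios were 0.01 to 0.09 for NF-YA1, 2, 3, 5, 8 and 10. They were 0.10 to 0.25 for NF-YA4, 6, 7 and 9. With NF-YA9 moved to the first of these groups, the ratios were 0.08 and 0.14. Dividing the members by a miR169 match, added after seeing the data, gave 0.10 with a match and 0.09 without. Over all loci edgeR called 1 higher and 1 lower. DESeq2 called 269 higher and 286 lower, limma-voom 0 higher and 1 lower, and edgeR without a filter on low counts 41 higher and 18 lower. Leaving out 1 library gave 0 to 307 higher and 0 to 403 lower, with 0 without either Col-LUC library (2472 and 2813 at an unadjusted p under 0.05 by edgeR). Same-numbered libraries share a number in the labels, which do not say whether they were prepared together. The deviations of same-numbered libraries correlated at -0.124 over loci, and the fit with a replicate block called 1 higher and 1 lower. A crossed replicate block, added after seeing the data, called 286 higher and 251 lower. NF-YA5, with 95 to 112 counts per library, had the largest standard error of the members, 0.29.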
